A study of Mus musculus with 4 samples.

Results

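The 39 genes described here encode the enzymes of glycolysis, the regulators and carriers that feed or drain that pathway, other genes known to respond to low oxygen, and 2 alpha subunits of the hypoxia-inducible factors (HIFs). They were chosen by name. A gene was kept if a probe set carrying its symbol and no other was called Present, that is, detected above background, on at least 2 of the 4 arrays. This left 35 of the 39 genes, out of 11656 genes in the series that met the same rule. They comprised 13 glycolytic enzymes, 6 regulators and transporters, 14 other HIF targets and 2 HIF alpha subunits. Gpi1, Eno1 and Bnip3l had no probe set annotated to them alone, and Gapdh was read only by control probe sets of the array, which were left out of the test. The probe set nearest the detection rule from inside was one for Adm, Present on 2 arrays. The nearest outside was a second one for Pfkp, Present on 1.

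RNA came from cells dissected from the surface of the liver, the mesothelium and the layer under it, of C57BL/6 embryos at embryonic day 17.5. One group was p57+/+, labelled wildtype, and the other p57-/-, labelled Kip2 -/-, which lacks the cyclin-dependent kinase inhibitor p57 encoded by Cdkn1c. Each genotype had 2 samples, 1 from experiment 1 and 1 from experiment 2, each read on its own array. The labels do not say whether a sample was 1 embryo or a pool, or what samples of 1 experiment shared, so a p-value here reflects how these 4 samples spread, in which technical variation may have a share. How the null allele was built is not given in the sources used here.

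Glycolysis splits glucose into pyruvate in the cytosol and yields ATP without oxygen, with lactate as the end product when pyruvate does not enter the mitochondria. HIF-1 and HIF-2 are pairs of an alpha subunit, Hif1a or Epas1, with the stable partner Arnt. In oxygen, prolyl hydroxylases such as Egln1 mark the alpha subunits for destruction through the VHL protein. When oxygen is short, the alpha subunits persist and bind a short DNA element near genes of glucose uptake, glycolysis, mitophagy, collagen hydroxylation and vessel growth. Alpha subunit activity is set mostly at the protein level, which arrays do not measure. The fetal liver is a site of blood formation, so its surface samples can also hold blood cells and hepatocytes.

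Cdkn1c gave 10255 and 9866 in p57+/+ against 7.79 and 7.28 in p57-/- (both called Absent), at least 760-fold lower, and was the 1 probe set of the array that passed the test. Between 48.5% and 50.1% of probe sets were called Present per array. The ratio of 3' to 5' control signal was 0.945 to 1.18 for Gapdh, lower on both arrays of experiment 1 than on those of experiment 2. For the Actb control it was 1.56 to 1.76, lowest on p57+/+ replicate 1. Values in this text are signals, linear intensities scaled to a common mean on each array. A log2 change is the mean log2 signal of p57-/- minus that of p57+/+, and each pair of signals is given in the order experiment 1, experiment 2. Signals of different genes are read by different probes and were not set against each other.

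As a group, these genes lay higher in p57-/-, by small amounts, and none of the 35 passed the test. The limma threshold was an adjusted p of 0.05 over 22800 probe sets, of which 0.00439% passed. Of the 35 genes, 26 were higher in p57-/- in both experiments, where 29.6% of all genes tested were. A further 4 were lower in both (26.7% of all genes), and 5 went opposite ways (43.7%). Both p57-/- arrays lay above both p57+/+ arrays for 18 (21.7% of all genes) and below them for 4 (19%). At an unadjusted p under 0.05 there were 11 higher (4.7%) and 2 lower (4.07%). These counts include Adm by a probe set Present in p57-/- alone. With its probe set Present on all 4 arrays, a choice made after seeing the data, 25 were higher in both experiments, 17 did not overlap and 10 were higher at that p. The median log2 change of the 35 was 0.34, beside 0.02 over all genes tested. That median was 0.41 in experiment 1 and 0.22 in experiment 2. Because the samples hold several cell types, more cells of a type and more RNA per cell cannot be told apart. Erythroid markers were lower at the same time, with a median of -0.51 over 10 genes, and their part in the result was not tested.

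**Figure D1:**
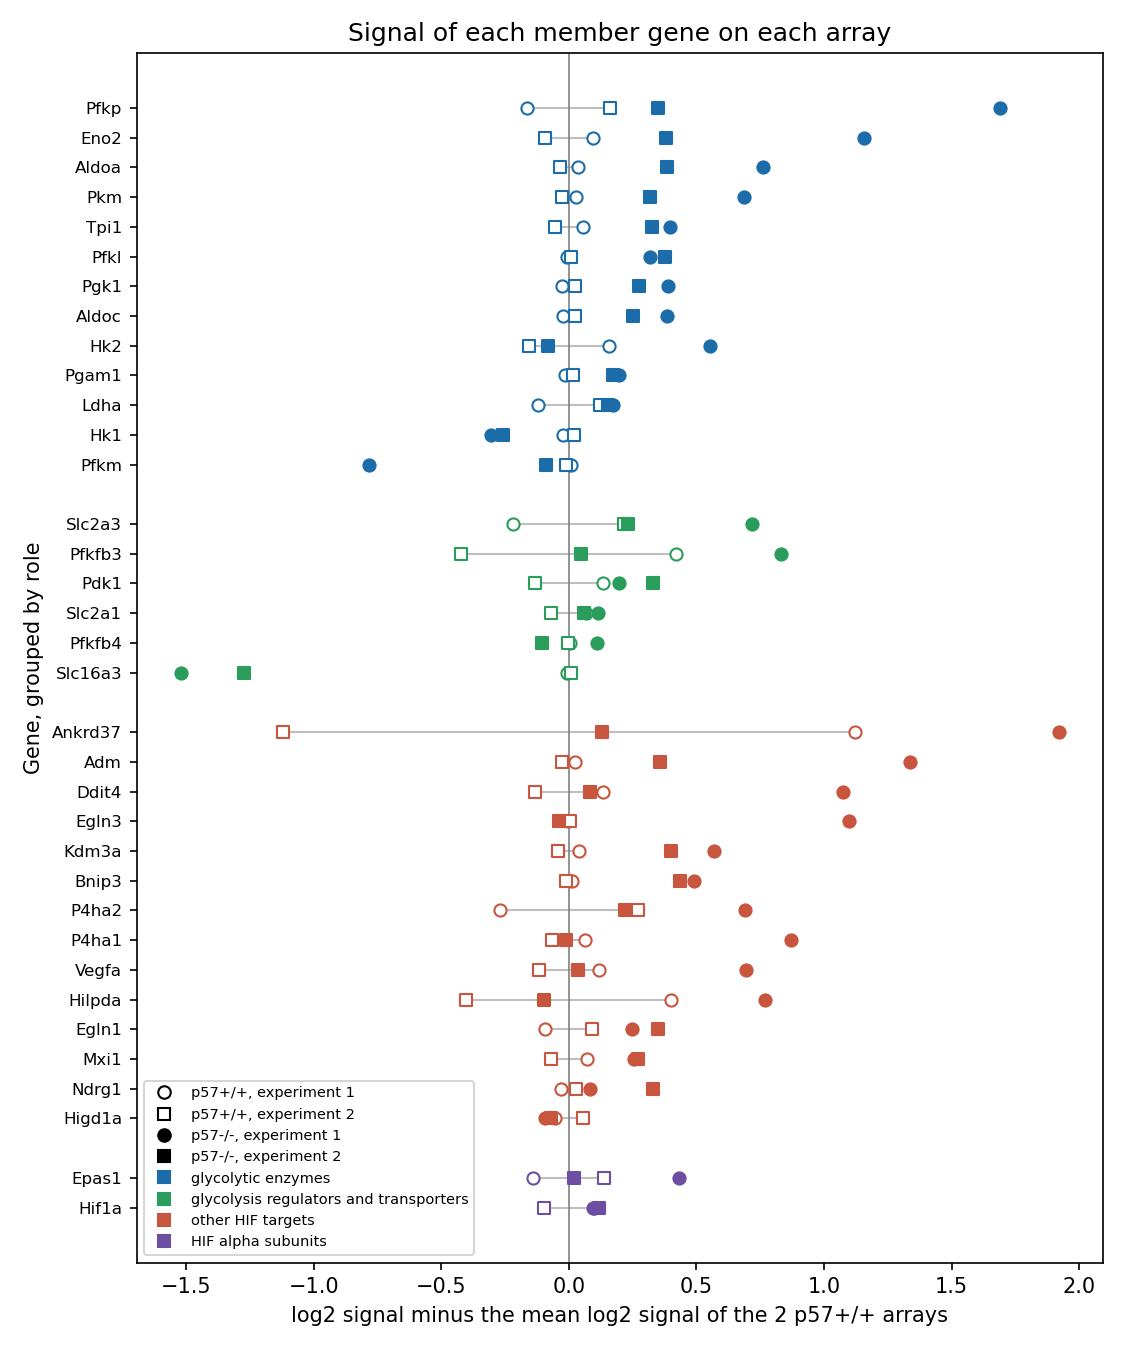
Log2 signal of the probe set used for each of the 35 genes on each of the 4 arrays, relative to the mean log2 signal of the 2 p57+/+ arrays (grey line, their range; circles, experiment 1; squares, experiment 2; colours, role). Filled points, p57-/-, lie to the right of the open points for 18 genes and to the left for 4, and Slc16a3 lies farthest left.

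The DNA element bound by HIFs has the core ACGTG or GCGTG. The 250 bases upstream of RefSeq start sites (GRCm38.p6) were searched for both cores on both strands, to show where the members with the smallest p-values carry one. RefSeq windows matched 32 of the 35 genes. ACGTG was found for 21 of these 32 genes (65.6%), beside 24.9% of 9482 tested genes with a window and 18.5% of all 27025 genes. For GCGTG the counts were 22 of 32 (68.8%), 49% and 30.9%. Genes differ in their number of windows, and these members were listed as HIF targets to begin with, so the shares describe the list. By group, ACGTG was found for 7 of 13 glycolytic enzymes, 3 of 5 regulators and transporters and 10 of 13 other HIF targets. ACGTG was found for 16 of 24 genes higher in both experiments and for 5 of the 8 others. In 5 genes a match lay inside CACGTG, which reads the same on both strands and is also the binding site of MYC-type factors.

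The 4 sequences below belong to the members with the smallest p-values that had ACGTG in a window. They run 5' to 3' on the strand of the gene and end at the base before the start site. Capitals mark ACGTG and its reverse complement CACGT, and the other core, GCGTG, is left in lower case. Bnip3 is at chr7:138909507-138909756 (minus strand), Aldoa at chr7:126799255-126799504 (minus strand, 1 of 3 windows), Slc16a3 at chr11:120948817-120949066 (plus strand) and Pgk1 at chrX:106186850-106187099 (plus strand).
Bnip3: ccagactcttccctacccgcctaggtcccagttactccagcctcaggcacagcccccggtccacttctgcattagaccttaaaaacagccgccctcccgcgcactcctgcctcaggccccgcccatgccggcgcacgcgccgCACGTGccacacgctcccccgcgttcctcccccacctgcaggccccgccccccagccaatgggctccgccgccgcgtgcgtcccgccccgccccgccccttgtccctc
Aldoa: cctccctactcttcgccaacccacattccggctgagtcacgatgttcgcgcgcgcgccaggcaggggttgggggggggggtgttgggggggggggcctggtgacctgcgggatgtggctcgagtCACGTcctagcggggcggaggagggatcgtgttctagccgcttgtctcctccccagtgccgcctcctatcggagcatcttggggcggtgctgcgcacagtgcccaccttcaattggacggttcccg
Slc16a3: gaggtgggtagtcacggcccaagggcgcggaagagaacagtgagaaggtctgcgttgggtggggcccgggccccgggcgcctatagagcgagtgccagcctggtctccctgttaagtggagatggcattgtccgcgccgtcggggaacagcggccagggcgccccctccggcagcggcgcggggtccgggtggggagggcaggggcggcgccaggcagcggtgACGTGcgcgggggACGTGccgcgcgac
Pgk1: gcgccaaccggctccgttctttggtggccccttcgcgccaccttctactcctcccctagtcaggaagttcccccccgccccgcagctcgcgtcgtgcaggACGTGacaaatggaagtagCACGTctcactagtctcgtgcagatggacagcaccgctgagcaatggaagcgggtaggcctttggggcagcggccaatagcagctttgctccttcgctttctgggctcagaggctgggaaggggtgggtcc
The palindrome of Bnip3 starts 108 bases before the start site, and the Aldoa match starts 126 bases before. Slc16a3 has 2 matches close to the start site, 27 and 14 bases before it. Pgk1 has one on each strand, 150 and 131 bases before. Slc16a3, printed with the others, was the member with the lowest signal in p57-/- relative to p57+/+. Tpi1 had neither core and Kdm3a had GCGTG only, and both were among the 4 members with the smallest p-values.

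Glycolytic enzymes lay higher in p57-/- in both experiments for 11 of 13 genes (29.6% of all genes). Hk1 and Pfkm were lower in both (26.7%). The median log2 change of the 13 was 0.33, with 0.40 in experiment 1 and 0.23 in experiment 2, and changes ran from -0.44 to 1.02. For 10 of the 13 both p57-/- arrays lay above both p57+/+ arrays (21.7% of all genes), and for 2 below (19%). None passed, with 7 higher and 1 lower at an unadjusted p under 0.05 (4.7% and 4.07% of all genes).

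The first committed steps were mixed. Hexokinase traps glucose in the cell as glucose 6-phosphate. Hk1, the isozyme of most tissues, gave 3166 and 3261 in p57+/+ against 2600.1 and 2690.0 in p57-/-, for a log2 change of -0.28 (SE 0.12, adjusted p = 0.642). The change was -0.28 in each experiment, and the groups did not overlap. A much dimmer probe set of Hk1 went opposite ways, at -0.82 in experiment 1 and 0.45 in experiment 2, and its groups overlapped. Hk2, the hypoxia-responsive isozyme, gave 1713 and 1376 against 2254 and 1452, for a log2 change of 0.24 (SE 0.21). Its groups overlapped, because p57-/- replicate 2 lay below p57+/+ replicate 1. Without p57-/- replicate 1 the Hk2 value was -0.08.

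Phosphofructokinase, the main control point of glycolysis, is built from subunits of 3 genes. Pfkp, the platelet type, gave 285 and 357 in p57+/+ against 1030.0 and 406 in p57-/-, for a log2 change of 1.02 (SE 0.36, adjusted p = 0.578). One array, p57-/- replicate 1, stood far above the other 3. The difference was 3.61-fold in experiment 1 and 1.14-fold in experiment 2. Pfkl, the liver type, gave 659.7 and 667 against 827 and 861, which differed by 1.25-fold and 1.29-fold. Its change was 0.35 (SE 0.15, adjusted p = 0.642). All 3 of its probe sets had positive changes, but the dimmer ones were at 0.11 and 0.02 with overlapping groups. The dimmest went opposite ways, at 0.49 in experiment 1 and -0.44 in experiment 2. Pfkm, the muscle type, gave 847 and 836 against 489.5 and 790.3, for a log2 change of -0.44 (SE 0.22). The same array that was high for Pfkp was low for Pfkm, while both p57+/+ arrays agreed closely.

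Below phosphofructokinase, the 8 tested members from aldolase to lactate dehydrogenase were higher on both p57-/- arrays than on both p57+/+ arrays (21.7% of all genes). They belong to the 10 of 13 enzymes counted above, and Ldha differed by only 0.03 in experiment 2. Other isozymes of these steps differed, with Eno3 at -0.70 (SE 0.38), Pklr at -0.47 (SE 0.18) and Ldhb at -0.02 in experiment 1 and 0.79 in experiment 2, all named after their values were seen. Aldoa, the main aldolase outside liver and brain, gave 6157 and 5863 in p57+/+ against 10166 and 7833 in p57-/-. Its mean was 6010.0 ± 208 against 8999 ± 1650.1 (SD, n = 2), for a log2 change of 0.57 (SE 0.14, adjusted p = 0.519). Its 5 probe sets all had positive log2 changes, from 0.02 to 0.61. The dimmest went opposite ways, at 0.13 in experiment 1 and -0.10 in experiment 2, and its groups overlapped. Aldoc, the brain type, gave 2045 and 2112 against 2711 and 2471, for a log2 change of 0.32 (SE 0.13). With the probe sets used, the groups did not overlap for either aldolase.

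Tpi1, which interconverts the triose phosphates, gave 15737 and 14568 in p57+/+ against 19906 and 18996 in p57-/-. The log2 change was 0.36 (SE 0.11, adjusted p = 0.549), and it was nearly equal in experiments 1 and 2, at 0.34 and 0.38. Gapdh, the next enzyme, had only its 3 control probe sets and no test. Its 5' control gave 21708 and 19791 in p57+/+ against 28649 and 21394 in p57-/-, differences of 0.40 and 0.11 on the log2 scale. The middle and 3' controls differed by 0.46 and 0.34 in experiment 1 and by 0.05 and 0.03 in experiment 2. Gapdh, often used to normalise expression, lay higher on p57-/- replicate 1 than on the other arrays.

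Pgk1, which makes the first ATP of the pathway, gave 19145 and 19846 against 25546 and 23588. Its log2 change was 0.33 (SE 0.11, adjusted p = 0.549), and all 3 probe sets were higher. Pgam1, a phosphoglycerate mutase, gave 10045 and 10247 against 11627 and 11453, a change of 0.19 (SE 0.11). Eno2, the neuronal enolase, was dim, with 68.2 and 59.9 against 142 and 83.1, and the last of these was not called Present. Its log2 change was 0.77 (SE 0.39).

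Pkm, the pyruvate kinase of proliferating and non-hepatic cells, gave 974 and 936 in p57+/+ against 1536 and 1190.4 in p57-/-, for a log2 change of 0.50 (SE 0.16, adjusted p = 0.558). Ldha, which reduces pyruvate to lactate, gave 38348 and 45430.3 against 46998 and 46471, a change of 0.16 (SE 0.11). Ldha was bright, on arrays whose highest signals were 61857.5 to 74259.5. In experiment 2 the Ldha difference was 0.03.

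**Figure D2:**
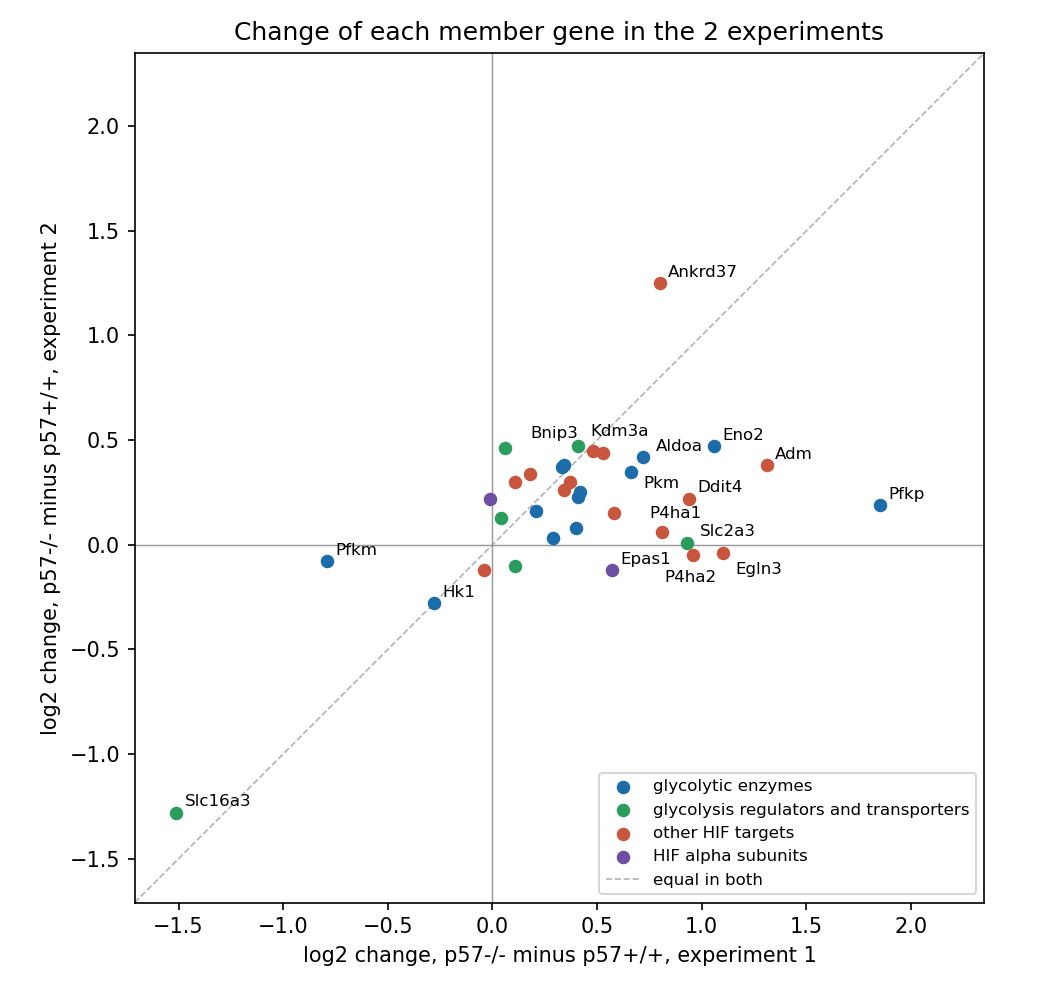
Log2 change (p57-/- minus p57+/+) of each of the 35 genes in experiment 1 (x axis) and experiment 2 (y axis), with the dashed line marking equal changes. Bnip3, Kdm3a and Aldoa lie near or beside the line, Pfkp (1.85 and 0.19), Egln3 (1.10 and -0.04) and Slc2a3 (0.93 and 0.01) lie far to its right, and Slc16a3 (-1.51 and -1.28) is low in both.

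The genes that regulate glycolysis or carry its substrate and product varied more among themselves. Of these 6, 4 were higher in p57-/- in both experiments (29.6% of all genes), Slc16a3 was lower in both, and Pfkfb4 went opposite ways. Their median log2 change was 0.18. Slc16a3 encodes the monocarboxylate transporter MCT4, which exports lactate from strongly glycolytic cells. It was dim, with 98.8 and 100.02 in p57+/+ against 34.6 and 41.1 in p57-/-, called Present on all 4 arrays. Its log2 change of -1.40 (SE 0.41, adjusted p = 0.549) was the largest in size of the 35 genes, and it had 1 probe set.

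The glucose transporter genes gave unlike values. Slc2a3, encoding the high-affinity transporter GLUT3, gave 1903 and 2570.1 in p57+/+ against 3635 and 2595 in p57-/-, for a log2 change of 0.47 (SE 0.19, adjusted p = 0.631). It was 1.91-fold higher in experiment 1 and 1.01-fold higher in experiment 2. A dimmer tested probe set of Slc2a3 was at 0.83 in experiment 1 and -0.16 in experiment 2. Slc2a1, encoding GLUT1, the transporter of many cell types, gave 16652 and 15142 against 17169 and 16557, and its change was 0.09 (SE 0.11).

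Pfkfb3 and Pfkfb4 make fructose 2,6-bisphosphate, the activator of phosphofructokinase. Pfkfb3 gave 509 and 284 in p57+/+ against 677 and 393 in p57-/-, and the genotype difference was alike in both experiments, at 0.41 and 0.47. The spread between experiments was wider than the genotype difference, so the groups overlapped (log2 change 0.44, SE 0.32). The Pfkfb3 value was 0.02 without p57+/+ replicate 2, 0.05 without p57-/- replicate 1, 0.83 without p57-/- replicate 2 and 0.86 without p57+/+ replicate 1. Pfkfb4 lay at 397 and 394 against 427 and 368, and its change of 0.0035 (SE 0.19) turned negative under 2 other scalings. Pdk1, a kinase that inhibits pyruvate dehydrogenase, gave 4230.2 and 3513 against 4421 and 4846. Its log2 change was 0.26 (SE 0.13), with 0.06 in experiment 1 and 0.46 in experiment 2. All 4 probe sets of Pdk1 had positive log2 changes. A dimmer one was at 0.30 and 0.04 in the same order, and another, with overlapping groups, at 0.46 and -0.01.

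Of the other HIF targets, 11 of 14 were higher in p57-/- in both experiments (29.6% of all genes). Higd1a was lower in both (26.7%), and Egln3 and P4ha2 went opposite ways (43.7%). The median log2 change was 0.44, the highest of the groups, and it was 0.55 in experiment 1 and 0.28 in experiment 2. Both p57-/- arrays lay above both p57+/+ arrays for 6 of the 14 (21.7% of all genes), and below them for 1 (19%). None passed, and 3 higher and 0 lower had an unadjusted limma p under 0.05 (4.7% and 4.07% of all genes). With Adm read by its probe set Present on all 4 arrays, 10 of the 14 were higher in both experiments. Then 5 had both p57-/- arrays above both p57+/+ arrays, 2 were higher at that p, and the median was 0.40. With the probe sets used, the median was 0.17 without p57-/- replicate 1 and 0.69 without p57-/- replicate 2.

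Bnip3 had the smallest p-value of the 35 genes. It encodes a mitochondrial outer membrane protein that marks mitochondria for removal. It gave 17072 and 16799.9 in p57+/+ against 23772 and 22910.1 in p57-/-, means of 16936 ± 192 and 23341 ± 609.8 (SD, n = 2). The log2 change was 0.46 (SE 0.10, adjusted p = 0.519), 1.39-fold in experiment 1 and 1.36-fold in experiment 2. Kdm3a, a histone demethylase gene induced by HIF, was nearly as even, with 1780.5 and 1681 against 2568 and 2285. Its log2 change was 0.49 (SE 0.13, adjusted p = 0.549).

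Of the oxygen sensor genes, Egln1 was higher in both experiments and Egln3 in experiment 1 alone. Egln1, the main HIF prolyl hydroxylase, gave 1712 and 1944 in p57+/+ against 2166 and 2323 in p57-/-, for a log2 change of 0.30 (SE 0.13, adjusted p = 0.642). A dimmer probe set of Egln1 was at 0.15 in experiment 1 and 0.02 in experiment 2, with overlapping groups (log2 change 0.08, SE 0.18). Egln3, a related hydroxylase that HIF induces, gave 1579 and 1590.2 against 3389 and 1543. A single array, p57-/- replicate 1, stood apart at 2.15-fold, and the other 3 lay together. Its second probe set behaved alike, at 0.59 in experiment 1 and -0.41 in experiment 2.

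Collagen prolyl hydroxylases stabilise the collagen triple helix, and P4ha1 and P4ha2 are HIF targets that encode their alpha subunits. P4ha1 gave 589.8 and 539 in p57+/+ against 1032 and 560.1 in p57-/-, for a log2 change of 0.43 (SE 0.26). P4ha2 gave 477 and 694 against 927 and 669, a change of 0.45 (SE 0.23). In experiment 2 these differences were 0.06 and -0.05. The dimmer probe set of P4ha1 differed alike in both experiments, by 0.62 and 0.52, with 128 and 105 against 196 and 151 and no overlap.

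Secreted and stress-response genes were likewise high mainly on p57-/- replicate 1. Ddit4, an inhibitor of mTORC1, gave 1291 and 1076 in p57+/+ against 2480.2 and 1248 in p57-/-, for a log2 change of 0.58 (SE 0.27, adjusted p = 0.653). Vegfa, the vascular endothelial growth factor, gave 766 and 652 against 1143 and 724, a change of 0.36 (SE 0.22). For both genes the p57-/- array of experiment 2 lay below the p57+/+ array of experiment 1. Adm encodes the vasodilator adrenomedullin. Its brighter probe set was Absent on both p57+/+ arrays at 116 and 112 and Present in p57-/- at 288 and 146, at least 1.80-fold higher (adjusted p = 0.626). Its other probe set was Present on all 4 arrays, at 101 and 138 in p57+/+ against 242 and 80.9 in p57-/-, so Adm was detected in both genotypes. There the groups overlapped, with 1.26 in experiment 1 and -0.77 in experiment 2 (log2 change 0.25, SE 0.47, adjusted p = 0.919).

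The remaining HIF targets spanned the range. Ankrd37, a strongly hypoxia-induced ankyrin repeat gene, gave 506 and 107 in p57+/+ against 880.4 and 255 in p57-/-. It was higher by 0.80 in experiment 1 and by 1.25 in experiment 2, and its log2 change was 1.02 (SE 0.69, adjusted p = 0.745). Its p57+/+ arrays differed 4.73-fold from each other, so the groups overlapped, and its value was -0.10 without p57+/+ replicate 2. Hilpda, a lipid droplet protein gene, gave 1063 and 609 against 1372 and 751. It was higher by 0.37 and 0.30 in the 2 experiments, and its value was -0.10 without p57-/- replicate 1 and -0.07 without p57+/+ replicate 2.

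Smaller differences were found for Mxi1, a MYC antagonist, at 0.26 (SE 0.13), and for Ndrg1, at 0.21 (SE 0.12). Higd1a, a mitochondrial inner membrane protein gene, was at -0.08 (SE 0.11), and it was 0.03 as the mean of its 3 probe sets. Of the 17 members with over 1 tested probe set, 4 had probe sets that disagreed in the direction of the log2 change over all 4 arrays. These were Mxi1, Ndrg1, Higd1a and Hif1a.

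The HIF alpha subunit genes went opposite ways in the 2 experiments. Hif1a gave 3834 and 3345 in p57+/+ against 3819 and 3885 in p57-/-, for a log2 change of 0.11 (SE 0.12). Epas1, encoding HIF-2 alpha, which endothelial and stromal cells express, gave 3129.6 and 3797 against 4646 and 3499, a change of 0.23 (SE 0.16). Epas1 was 1.48-fold higher in experiment 1, on p57-/- replicate 1, and 1.09-fold lower in experiment 2.

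Many of these differences were larger in experiment 1, where p57-/- replicate 1 was the high array. The log2 change, taken with its sign, was larger in experiment 1 than in experiment 2 for 23 of the 35 genes (52.7% of all genes). It was so for 9 of 13 glycolytic enzymes and for 11 of 14 other HIF targets. Genes with a larger decrease in experiment 1, such as Pfkm (-0.79 and -0.08), are not in these counts. Without p57-/- replicate 1, the median of the glycolytic enzymes was 0.26 and that of the other HIF targets 0.17. Without p57-/- replicate 2, 4 members passed in limma, when 221 probe sets did. These were Pfkp at 1.69 (adjusted p = 0.00848), Egln3 at 1.10 (adjusted p = 0.00848), Ddit4 at 1.07 (adjusted p = 0.0177) and Aldoa at 0.76 (adjusted p = 0.0324). That fit sets a single p57-/- array against both p57+/+ arrays and assumes that it varies as they do. A test of the difference between experiments could not be made with 1 array per genotype and experiment.

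Some members differed more between experiments than between genotypes. Ankrd37 was 4.73-fold higher in experiment 1 than in experiment 2 in p57+/+ and 3.46-fold higher in p57-/-. Pfkfb3 was 1.79-fold and 1.72-fold higher, and Hilpda 1.75-fold and 1.83-fold. In all, 16 of 35 members were higher in experiment 1 in both genotypes (23.7% of all genes) and 6 were lower in both (26.9%). Among the other HIF targets these counts were 8 and 3 of 14. Across the 35 genes, the difference between experiments in p57+/+ correlated with that in p57-/- at Pearson r = 0.49, beside 0.02 over all genes. Ankrd37, at 2.24 in p57+/+ and 1.79 in p57-/- on the log2 scale, weighs heavily in that r. The other members lay between -0.54 and 0.84 in p57+/+, so the r does not describe the list as a whole. These genes are not independent replicates.

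**Figure D3:**
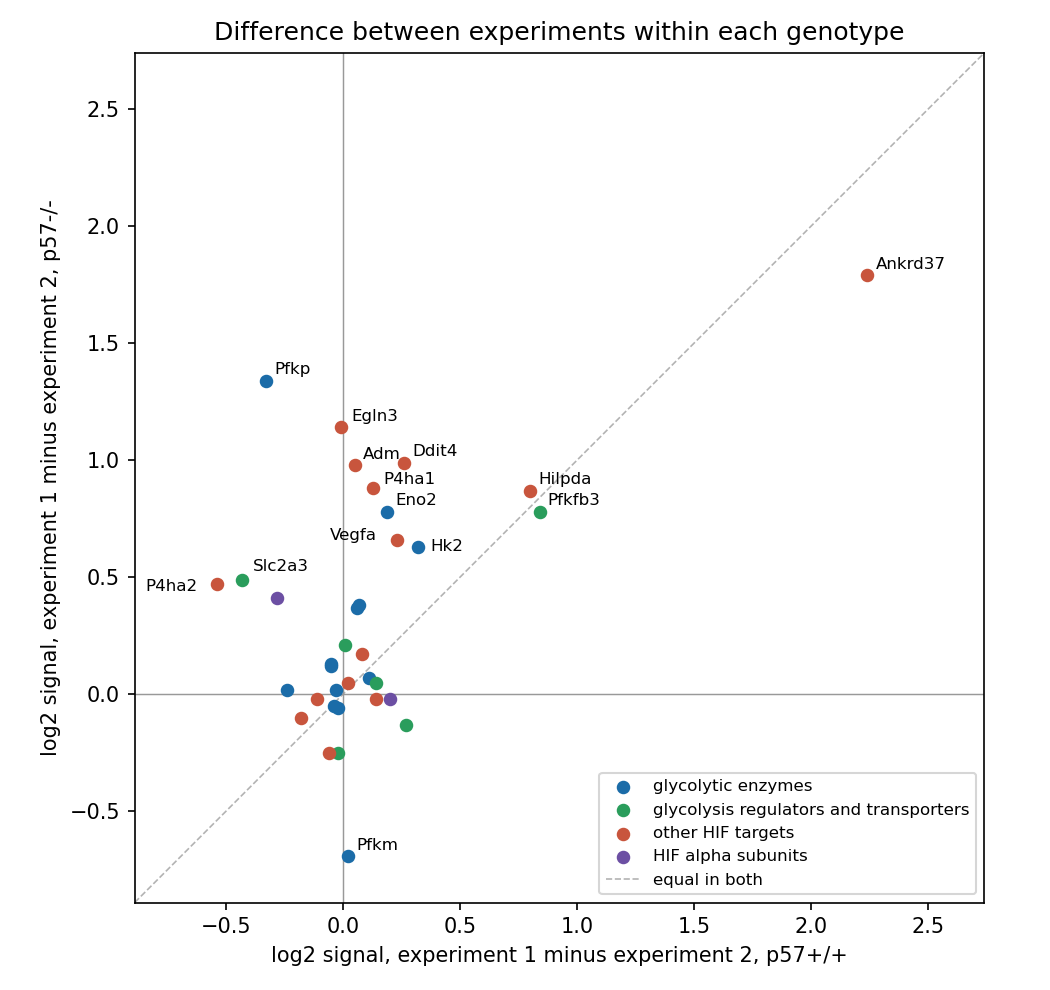
Log2 signal of experiment 1 minus experiment 2 for each of the 35 genes in p57+/+ (x axis) and p57-/- (y axis). Ankrd37, Hilpda and Pfkfb3 lie near the dashed line of equal differences, while Pfkp, Egln3, Adm, Ddit4 and P4ha1 lie between -0.33 and 0.26 in p57+/+ and between 0.88 and 1.34 in p57-/-.

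Further genes of these pathways had medians closer to 0. Of 23 tested genes from a second list of hypoxia-inducible genes, 12 were higher in p57-/- in both experiments and 4 lower. Of all genes, 29.6% and 26.7% were so, and the median of the list was 0.19. That median was 0.32 in experiment 1 and 0.05 in experiment 2. Plod2, a HIF-induced lysyl hydroxylase of collagen, gave 387 and 302 in p57+/+ against 799 and 415 in p57-/- (log2 change 0.75, SE 0.29), but by p-value the first 3 of the list were Plod1, Ak4 and Pgm1. The related lysyl hydroxylase gene Plod1 was lower, with 864 and 1067 against 611 and 627, a change of -0.63 (SE 0.17, adjusted p = 0.549). Ak4, a mitochondrial adenylate kinase, and Pgm1, a phosphoglucomutase, were at 0.45 (SE 0.15) and 0.33 (SE 0.12). Plod2 was named after its value was seen.

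Genes of the HIF degradation machinery and partners had a median of 0.05 over 11 tested genes. Of these, 4 were higher and 3 lower in both experiments (29.6% and 26.7% of all genes). Cited2, a HIF-induced competitor for the coactivator p300, was at 0.36 (SE 0.14). The elongin genes Elob and Eloc, which encode partners of VHL, were at -0.21 (SE 0.12) and -0.19 (SE 0.12). No gene of these 2 lists passed the threshold.

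The other isozymes, regulators and carriers of glycolysis, 15 tested, had a median of 0.02. Of these, 5 were higher and 3 lower in both experiments (29.6% and 26.7% of all genes). Pdk4, a pyruvate dehydrogenase kinase of fasting and fatty acid use, gave 728 and 539 in p57+/+ against 1436 and 988 in p57-/-, for a log2 change of 0.93 (SE 0.22, adjusted p = 0.519). Pdk3, of the same family, lay on the other side, with 762 and 742 against 497 and 528 and a change of -0.55 (SE 0.16). Mpc1, of the mitochondrial pyruvate carrier, was at 0.35 (SE 0.12). For these 3 genes the groups did not overlap.

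Red cell markers were lower on the p57-/- arrays. Values are given for 10 erythroid markers. All 10 had lower means in p57-/-, 9 of them in both experiments (26.7% of all genes). Each of the 10 was Present on all 4 arrays. Their summed signal was 112021 to 117359 in p57+/+ and 75470.5 to 101191 in p57-/-, the lower value on replicate 1. By experiment their median log2 change was -0.71 and -0.26. Mesothelial markers, 10 of 10 tested, had a median of 0.06, with 0.21 in experiment 1 and -0.08 in experiment 2. They summed to 10644 to 13509 in p57+/+ and 12492 to 14899.9 in p57-/-. Mesenchymal markers, 8 of 9, had a median of 0.22, with 0.39 in experiment 1 and 0.03 in experiment 2. They summed to 66156 to 74536 against 77322 to 85660.

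Endothelial markers, 9 of 10, had medians of 0.54 in experiment 1 and -0.15 in experiment 2, and megakaryocyte markers, 5 of 7, had 0.55 and -0.19. Their summed signals were 8591 to 9598 and 10297 to 11641 in p57+/+, and 8448 to 11367 and 10576 to 16706 in p57-/-, highest on replicate 1. Hepatocyte markers, 8 of 9, had a median of 0.04, with 0.20 in experiment 1 and -0.16 in experiment 2. They summed to 361506 to 447735 against 402901 to 414732. Granulocyte markers, 9 of 9, all had higher means in p57-/-, with a median of 0.11. Of these, 7 were higher in both experiments (29.6% of all genes) and 6 without overlap (21.7%). The granulocyte markers summed to 198748 to 201045 in p57+/+ against 214328 to 221898. Stellate cell markers, 8 of 9, were higher in both experiments for 5 (29.6% of all genes) and lower for 2 (26.7%). The stellate cell markers had a median of 0.20 and summed to 17725 to 19035 against 20953 to 22130.0. Macrophage markers, 10 of 10, had a median of 0.08, with 0.29 in experiment 1 and -0.19 in experiment 2. They summed to 30607 to 31198 against 27133 to 35994. Of 6 skeletal muscle markers only Mylpf was tested, and it stood at 1222 on p57+/+ replicate 1, beside 218 to 299 elsewhere. Eno3, the muscle enolase, was likewise high on p57+/+ replicate 1, at 561 against 213 to 215. The part of cell makeup in the changes of the glycolytic and HIF genes was not tested.

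**Figure D4:**
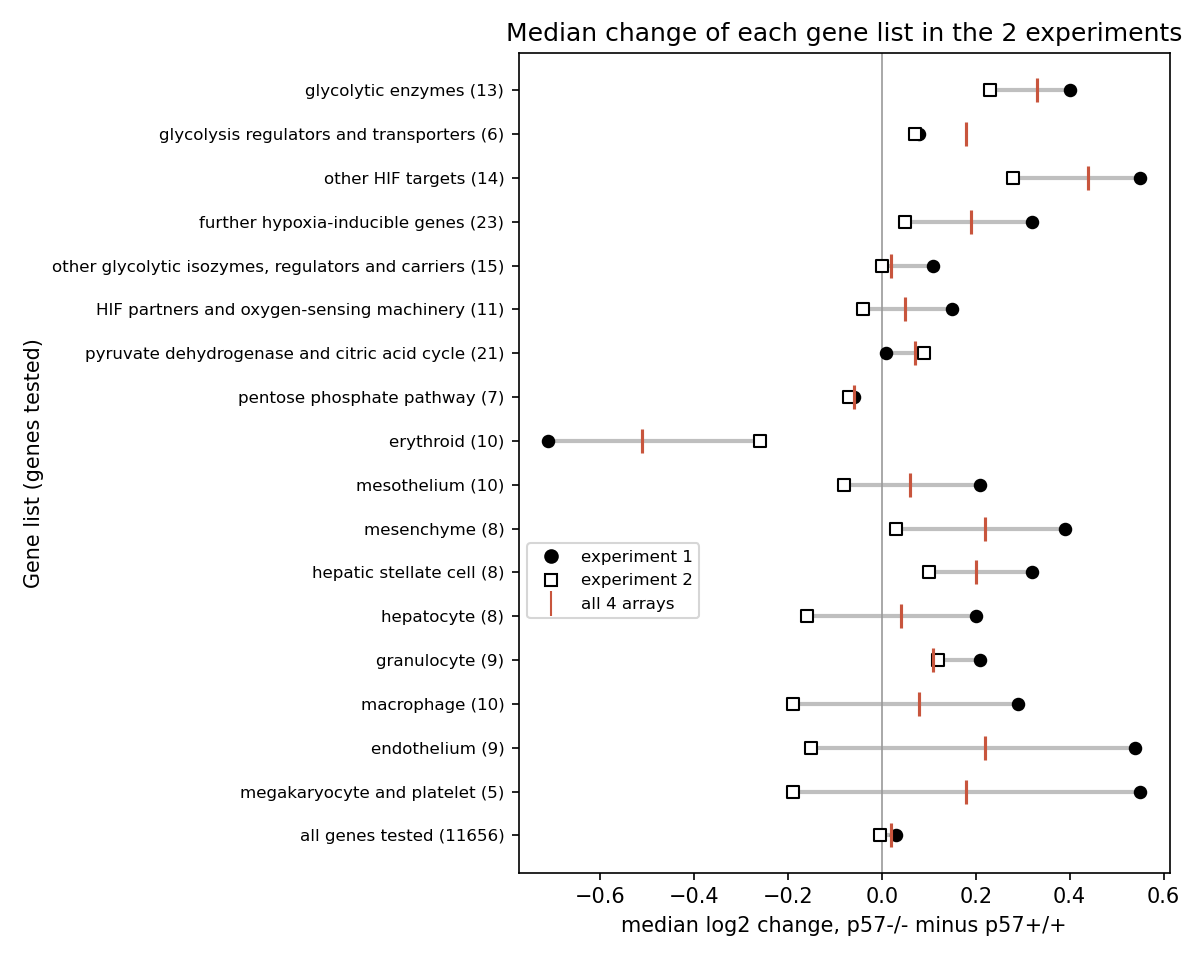
Median log2 change (p57-/- minus p57+/+) of each gene list in experiment 1 (filled circles), experiment 2 (open squares) and over all 4 arrays (vertical marks), with the number of genes tested. The glycolytic enzymes and the other HIF targets lie above 0 in both experiments, and the erythroid markers below 0 in both. Of the cell type markers, the endothelial, megakaryocyte, hepatocyte, macrophage and mesothelial lists lie on opposite sides.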

How the data were processed

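The deposited files hold, per the file headers, the signal intensity that the authors computed with MAS5 (a tool named in the submitters' processing notes) of each of 45101 probe sets per array, with a detection p-value and a call of Present, Marginal or Absent. The mean signal trimmed by 2% at each end was 500.003 on every array. Scaling to a common mean hides a change in total RNA. The version of MAS5 is not given in the sources used here.

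Signals were log2 transformed with no pseudocount. The 64 controls were left out, and probe sets Present on at least 2 arrays were tested (22800), for p57-/- minus p57+/+, with limma 3.58.1 in R 4.3.3 (lmFit, eBayes with a variance trend), two-sided, with no block and Benjamini-Hochberg adjustment over all of them. The code was tested on simulated data. Symbols came from the platform annotation, in which 34945 probe sets that are not controls have 1 symbol, 932 several and 9160 none. Each gene was represented by its probe set with the highest mean log2 signal. For a gene called Absent throughout a genotype, the fold is a bound against the higher of its own signal and the array's lowest Present signal.

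Members and lists were chosen with earlier results of these data known, so no list was tested. Full values were given to the 12 members with the smallest p-values, to those at least 2-fold changed and to paralog families, and up to 3 genes per further list were named by p-value. The 2 experiment numbers are too few to show pairing (correlation of same-numbered arrays' deviations 0.0046). Alternatives were other scalings, filters, probe set rules, a replicate block and leaving out each array.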

Additional observations from a re-analysis of the deposited data

How the results depend on the processing

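Among the 452 values of member genes recomputed under the alternatives, 437 kept their direction and their side of the threshold, 4 came to pass it and 11 changed sign. The sign changes were for Pfkfb4 after quantile normalization (-0.0035) and with each array centred on its median (-0.01), for Higd1a as the mean of its probe sets (0.03), and otherwise when an array was left out. Those ranged over the left-out arrays from -0.08 to 0.55 for Hk2, -0.10 to 0.11 for Pfkfb4, -0.04 to 1.10 for Egln3, -0.01 to 0.87 for P4ha1, -0.10 to 0.77 for Hilpda and -0.10 to 2.15 for Ankrd37. The cause was not tested. The replicate block, the fit without a variance trend and the fit with no detection filter kept each member's log2 change of the main fit. These alternatives could not change a sign, so part of the 437 was fixed in advance. With the experiment number as a replicate block, 30 probe sets passed and none was a member, the lowest member adjusted p being 0.0708 for Ankrd37. Of the genes of the further lists, Pdk4 passed with that block (limma adjusted p = 0.0385). With Present calls required on all 4 arrays, 0 passed, since Cdkn1c is then not tested. Leaving out an array gave 5 to 221 probe sets past the threshold. It gave a median of 0.17 to 0.69 for the other HIF targets and of 0.26 to 0.39 for the glycolytic enzymes. The other alternatives run gave 0.30 to 0.33 for the glycolytic enzymes and 0.39 to 0.44 for the other HIF targets. Without probe sets ending in _s_at or _x_at, Aldoa and Slc2a3 had none left. With 2 arrays per genotype, the number of arrays limits what the test can pass.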

Other observations

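Genes that burn pyruvate in the mitochondria were mixed. Of 21 tested genes of pyruvate dehydrogenase and the citric acid cycle, 11 were higher in p57-/- in both experiments and 5 lower (29.6% and 26.7% of all genes), with a median log2 change of 0.07 and a range from -0.31 to 0.35. Suclg1, of succinyl-CoA synthetase, gave 5631 and 4983 in p57+/+ against 7188 and 6345 in p57-/-, a change of 0.35 (SE 0.12, limma adjusted p = 0.578). Cs, citrate synthase, gave 7732 and 6970.2 against 5518 and 6316, a change of -0.31 (SE 0.12, limma adjusted p = 0.61). For both genes the groups did not overlap.

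The pentose phosphate pathway, which diverts glucose 6-phosphate to make NADPH and ribose, had a median of -0.06 over 7 tested genes. Of these, 1 was higher and 3 lower in both experiments (29.6% and 26.7% of all genes). Rpia, ribose 5-phosphate isomerase, was at -0.27 (SE 0.14), Taldo1, transaldolase, at -0.18 (SE 0.12) and H6pd, the enzyme of the endoplasmic reticulum, at 0.33 (SE 0.18). Pklr, the pyruvate kinase gene of liver and red cells, gave 1819 and 2214 in p57+/+ against 1221 and 1710.5 in p57-/-, a change of -0.47 (SE 0.18), while Pkm lay at 0.50 (SE 0.16). Pklr was named after its value was seen. The summed erythroid marker signal was lower on both p57-/- arrays, and its part in the Pklr value was not tested.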
